A study of Mus musculus with 4 samples.

Results

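The genes examined here encode the proteins of the cytosolic ribosome. They were chosen by name as the genes whose symbol begins with Rpl or Rps followed by a digit, together with Rpsa, Rplp0, Rplp1 and Rplp2, leaving out the Rps6k kinases and symbols that contain -ps. This gave 91 of the 24087 genes listed, 55 named for the large subunit, 35 for the small subunit and Rps19bp1, which encodes a binding protein of the ribosomal protein S19 and is no ribosomal protein itself. Of the 91 genes, 77 are the core genes (46 large and 31 small) and 13 are paralogs or retrogenes. GENCODE classes 87 of them as protein coding and 4 as pseudogenes. Ribosomal proteins such as Fau and Rack1 have names that do not follow this pattern, and their values are given separately.

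RNA was measured by sequencing in Treg cells sorted as CD3+CD4+YFP+ from the spleen of C57BL/6 mice at steady state. The 2 KO libraries came from Foxp3Cre-YFPSetd2f/f mice, which lack the H3K36 methyltransferase Setd2 in cells that express Foxp3, and the 2 CTRL libraries from Foxp3Cre-YFPSetd2f/+ littermates, which carry the same Foxp3-driven Cre and 1 floxed allele. No group without Cre or without a floxed allele was analysed here. Each library was made from the cells of 2 mice, and the study states an age of 6 to 12 weeks and both sexes for its mice unless specified otherwise. The comparison asks what the loss of both Setd2 alleles changes in Treg cells, here in the messages for the ribosome itself.

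The ribosome is built from ribosomal RNA and a set of proteins of which most are present as 1 copy per particle. The large subunit joins amino acids and the small subunit reads the messenger RNA. In mammals most of these mRNAs belong to the 5′ TOP class, whose first base is a C followed by a tract of pyrimidines, and whose translation follows mTORC1 signalling through Larp1. T cells that leave the resting state raise their output of ribosomes before they divide. The genes are scattered over the genome, 19 chromosomes here, and many left processed pseudogenes.

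The sequences around the start of these genes are shown because they hold letters that were more frequent in the members than in all genes tested, although not every member has them. Windows from 250 bases before to 50 bases after an annotated start were taken from RefSeq (GRCm38.p6), and 69 of the 91 genes matched by symbol, 65 of them among those tested. The first 6 windows below hold a C and at least 4 further pyrimidines exactly at the annotated start. Each window runs from 10 bases before the start to 20 bases from it onward, 5′ to 3′, and capitals mark the longest run of C followed by at least 4 pyrimidines that begins within 10 bases of the start.
Rps6 (chr4:86857348-86857377, minus strand): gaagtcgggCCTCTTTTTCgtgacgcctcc
Rps18 (chr17:33955646-33955675, minus strand): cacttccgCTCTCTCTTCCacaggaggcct
Rpl35 (chr2:39005112-39005141, minus strand): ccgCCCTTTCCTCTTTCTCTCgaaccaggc
Rplp2 (chr7:141447641-141447670, plus strand): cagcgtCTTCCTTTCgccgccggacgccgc
Rpl38 (chr11:114668570-114668599, plus strand): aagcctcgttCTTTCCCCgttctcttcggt
Rpl28 (chr7:4792955-4792984, plus strand): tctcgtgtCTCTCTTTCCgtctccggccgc
The next 7 windows belong to genes whose values are described below as the lowest or the highest in KO, where a window was listed.
Rpl5 (chr5:107900518-107900547, plus strand): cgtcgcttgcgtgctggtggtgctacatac
Rpl36a (chrX:134585644-134585673, plus strand): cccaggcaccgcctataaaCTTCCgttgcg
Rps4x (chrX:102189372-102189401, minus strand): gctgggcggagcaacccaggctccagcgcg
Rps25 (chr9:44407704-44407733, plus strand): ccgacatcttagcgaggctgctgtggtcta
Rps26 (chr10:128626487-128626516, minus strand): gcaagccgccggatCCTCTTTCgagtcttg
Rpsa (chr9:120127756-120127785, plus strand): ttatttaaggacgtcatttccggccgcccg
Rps27l (chr9:66946076-66946105, plus strand): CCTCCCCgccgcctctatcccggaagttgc

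A C and at least 4 pyrimidines stood exactly at the annotated start in 13 of the 65 tested members with a window (20%) and in 207 of 8873 tested genes (2.33%). Within 10 bases of the start such a run was found in 35 members (53.8%), against 32.5% of all genes tested. An annotated start that is a few bases off shifts this count. The letters CGGAAG, the core of the sites bound by ETS factors such as GABP, were searched on both strands of the whole window. They were present in 43 of the 65 members (66.2%) and in 34.8% of the genes tested. Of all 27025 genes with a RefSeq window, measured here or not, 17.2% held them. The E-box CACGTG, searched the same way, was in 7.69% of the members and in 10.5% of the genes tested. The start with C and pyrimidines was found in 10 of the 41 members with a window whose KO values lay below the CTRL values and in 3 of the other 24. CGGAAG was found in 29 of those 41 and in 14 of those 24. The 30-base windows below were read upstream of the start of 5 members that are described further on, and capitals mark 1 match to CGGAAG in each. In lower case the Rpl38 window holds a further match on the same strand, and the Rps26 window holds 1 on the other strand.
Rps25 (chr9:44407630-44407659, plus strand): cacccattgcccCGGAAGtactctctcgag
Rps6 (chr4:86857368-86857397, minus strand): tatgtgccctgggttaagCGGAAGtcgggc
Rpl38 (chr11:114668550-114668579, plus strand): ggttaaccgtccggaagCGGAAGcctcgtt
Rpsa (chr9:120127693-120127722, plus strand): ctttttccggagCGGAAGttctcccttttt
Rps26 (chr10:128626702-128626731, minus strand): ttaatcttccgcCGGAAGgttaaatagttc

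The deposited values were FPKM, fragments scaled to gene length and library size, and rested on at least 29984837 to 32683452 recovered reads per library. CTRL 1 stood apart in having 19100 genes above 0, against 15913 to 16410 in the other libraries. Setd2 was 23.4 and 25.3 FPKM in CTRL and 21.3 and 19.5 in KO, a log2 difference of -0.24 ± 0.0763 (SE) that did not pass the threshold (adjusted p = 0.0970). The value covers the whole gene, so messages that lack only the deleted part still count. Differences below are KO minus CTRL on log2(FPKM + 1), tested by limma over 11399 genes with Benjamini-Hochberg adjustment, and a gene was called at adjusted p under 0.05. Each group had 2 libraries, so the tests rest on the spread between 2 pools of mice, combined with a spread shared over genes. The SE printed for a gene is therefore not the spread of its own libraries alone.

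Ribosomal protein genes were among the most abundant messages of these Treg cells. They took 29 places of the 50 genes with the highest mean FPKM and 58 of the first 100. Their summed FPKM made up 19.0% and 19.6% of the total in the CTRL libraries and 17.1% and 17.5% in the KO libraries. Each KO library was lower than each CTRL library, with means of 19.3% ± 0.409 and 17.3% ± 0.287 (SD, n = 2 each), a difference of -2.02 percentage points. The large subunit genes gave 10.8% and 10.9% in CTRL and 9.65% and 9.87% in KO, and the small subunit genes 8.22% and 8.64% in CTRL and 7.42% and 7.61% in KO. No p is given for this sum, since the members were chosen with earlier results known. The 13 mitochondrially encoded genes were also lower in KO, at 6.48% and 5.91% of summed FPKM in CTRL and 5.42% and 5.14% in KO, a fall of 13.9% in FPKM against 9.56% for the members. With those genes left out of the total, the members made up 20.3% and 20.8% in CTRL and 18.1% and 18.4% in KO, a difference of -2.33 percentage points. In recovered reads the genes, which are shorter than most, took a smaller share, 6.99% and 7.12% in CTRL and 6.31% and 6.48% in KO. Recovered reads are lower bounds of the counts, so this share is approximate. In bulk RNA, fewer cells of a type and less RNA per cell cannot be told apart.

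**Figure D1:**
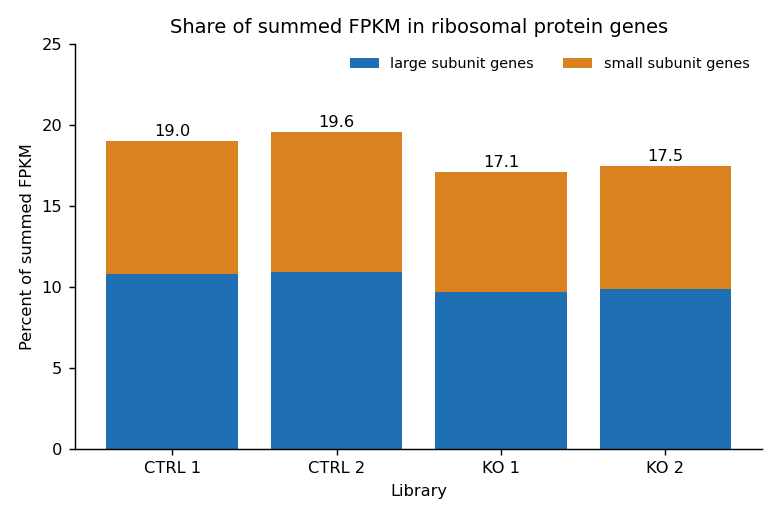
Share of each library's summed FPKM (y axis, percent) held by large and small subunit genes in the 2 CTRL and 2 KO libraries (x axis), with the total printed above each bar. The CTRL libraries stand at 19.0% and 19.6% and the KO libraries at 17.1% and 17.5%.

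Genes had to reach an FPKM of 1 in 2 or more libraries to be tested, and 87 of the 91 members did. In KO, 7 fell and 0 rose. Those that fell are 8.05% of the members tested, against 4.65% of all genes tested that fell, and 5.1% of all genes rose (9.75% in either direction). At an unadjusted p under 0.05, 36 members were lower and 2 higher, where 18.4% and 16.3% of all genes were. Under quantile normalization 15 members were lower and 2 higher, where 479 and 524 of all genes were. Under limma-voom on the recovered reads 21 were lower and 0 higher, where 1002 and 891 of all genes were. Without the filter 0 members fell. The count over all genes is not given for that setting, so this 0 is not read as a result about the members. With no variance trend 1 member fell and with the exon length trend removed 4, where 364 and 291 of all genes fell. In the test used 530 of all genes fell, so the calls over all genes moved with the setting too. The shift was broader than the calls: the fold change was below 0 for 73 of the 87, against 53.8% of all genes. In 58 members (66.7%) each KO value was lower than each CTRL value, as in 35.5% of all genes, and in 4 members (4.60%) each was higher, as in 29% of all genes. The median log2 fold change was -0.17 over the members and -0.02 over all genes tested. It was -0.15 over the 51 large subunit genes tested and -0.20 over the 35 small subunit genes, with 4 and 3 genes that fell.

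**Figure D2:**
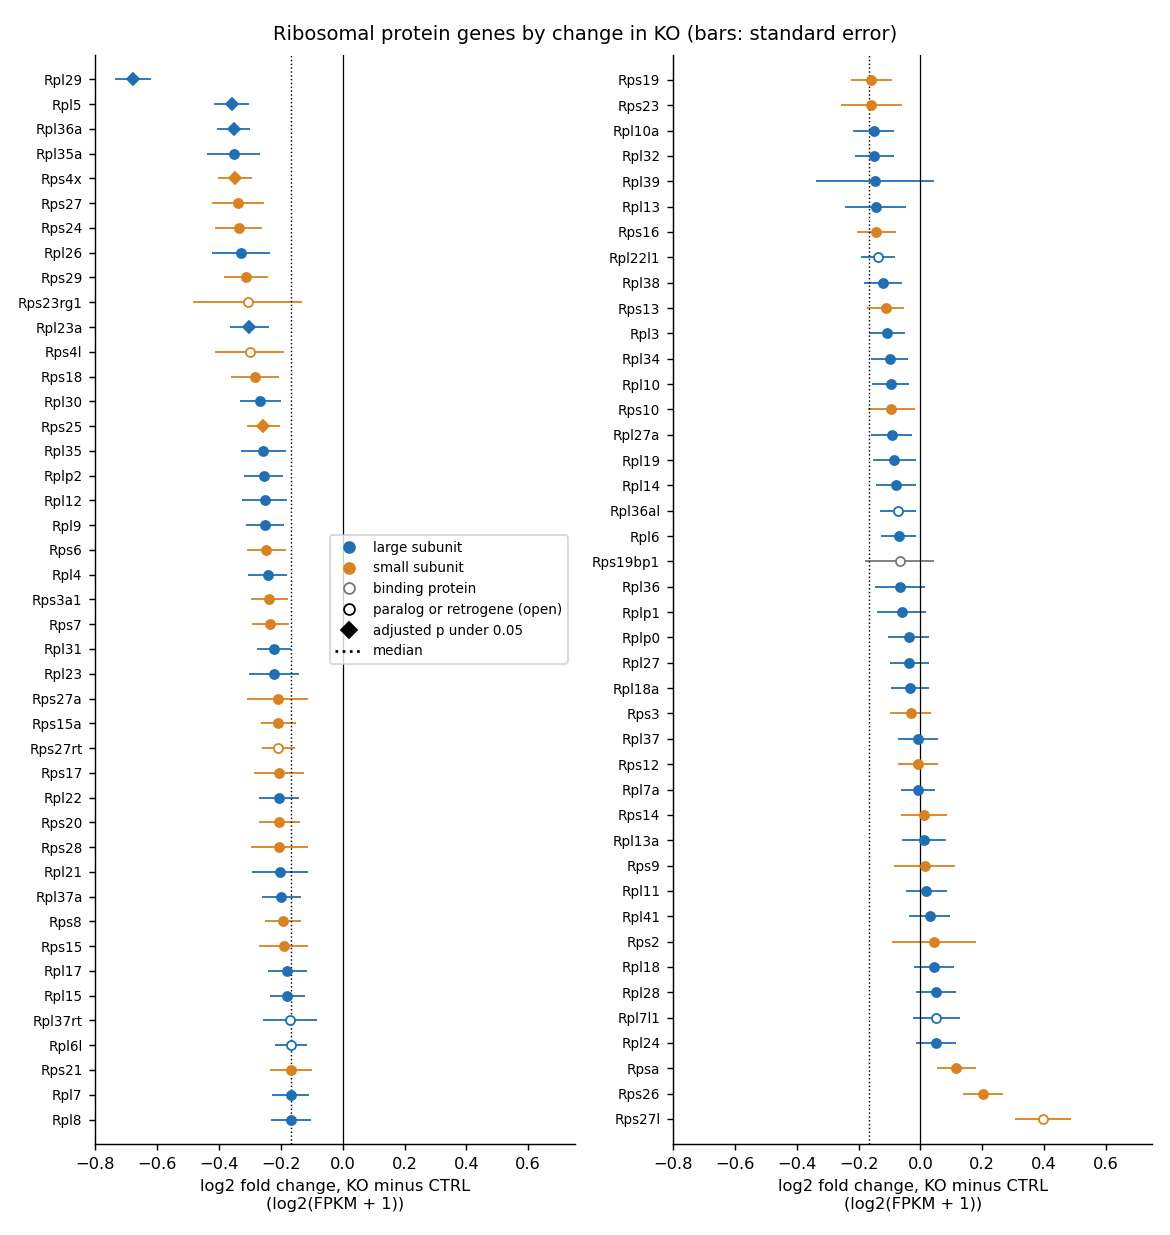
Tested genes (85 of the 87) in order of their log2 fold change (x axis, KO minus CTRL on log2(FPKM + 1)), with bars for the standard error, diamonds for adjusted p under 0.05 and open circles for paralogs, retrogenes and the binding protein. The dotted line is the median of -0.17 over the 87, Rpl29 stands lowest at -0.68 and Rps27l highest at 0.40.

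The gene that fell most was Rpl29 (ENSMUSG00000048758, chr9:106429454-106431568, plus strand), which encodes a large subunit protein also described as a heparin-binding protein. It was 779 and 785 FPKM in CTRL and 476 and 502 in KO, so KO held 62.5% of the CTRL mean. The log2 fold change was -0.68 ± 0.0585 (SE, adjusted p = 0.0299), the lowest value of any member. Rpl29 shares 50.9% of its 100-base stretches with 27 other genes of the annotation, 24 of them pseudogenes.

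Among the large subunit genes, Rpl5, Rpl36a and Rpl23a fell as well. Rpl5 (chr5:107900502-107909005, plus strand) encodes a protein that carries 5S ribosomal RNA into the ribosome and, with Rpl11, binds Mdm2 when assembly fails. It was 722 and 698 FPKM in CTRL and 558 and 549 in KO (log2 fold change -0.36 ± 0.0557, adjusted p = 0.0374). Its partner Rpl11 did not follow it. Rpl11 was 1210.2 and 1239 FPKM in CTRL and 1199 and 1283 in KO, with overlapping groups and a log2 fold change of 0.019 ± 0.0660 (adjusted p = 0.866). Rpl36a (chrX:134585654-134588062, plus strand) was 658 and 657 FPKM in CTRL and 509 and 520.1 in KO (log2 fold change -0.35 ± 0.0537, adjusted p = 0.0365). Rpl23a (chr11:78180932-78183584, minus strand), whose protein sits at the exit of the peptide tunnel, was 2339.8 and 2285 FPKM in CTRL and 1883 and 1868 in KO (log2 fold change -0.30 ± 0.0630, adjusted p = 0.0495). It was the sixth most abundant member, and none of these genes overlapped between the groups except Rpl11.

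Among the 3 small subunit genes that fell were Rps4x and Rps25. Rps4x (chrX:102184941-102189394, minus strand) was 883 and 874 FPKM in CTRL and 698 and 683 in KO (log2 fold change -0.35 ± 0.0556, adjusted p = 0.0378). Rps25 (chr9:44407139-44410427, plus strand), known for its part in initiation at viral internal entry sites, was 614 and 625 FPKM in CTRL and 515 and 521 in KO (log2 fold change -0.26 ± 0.0537, adjusted p = 0.0498). In Rps4x the KO libraries held 78.6% of the CTRL mean and in Rps25 83.7%, and the groups did not overlap in either gene. Rps4x shares 34.8% of its stretches with other genes, Rpl5 91.1%, Rpl36a 83.6%, Rpl23a 80.0% and Rps25 56.8%. Rpl5, Rpl23a and Rps25 share exon sequence with a gene of the opposite strand. The sources used here do not give the strand setting of the counts or how multiply mapped reads were treated.

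**Figure D3:**
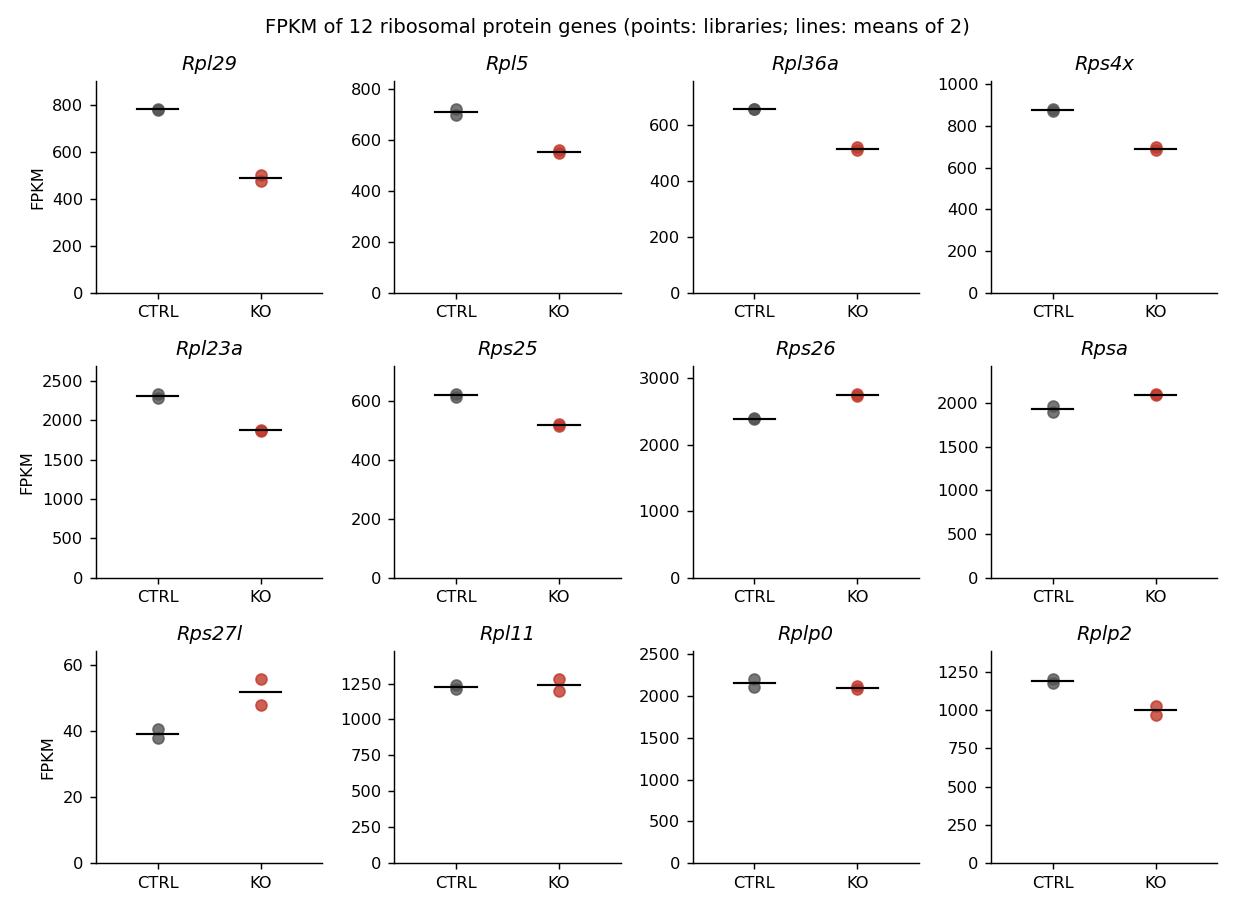
FPKM (y axis, from 0) of 12 genes in the 2 CTRL and 2 KO libraries, each point a library and each line the mean of 2. The first 6 panels are genes that fell, Rps26, Rpsa and Rps27l are higher in both KO libraries, Rpl11 and Rplp0 overlap between the groups, and Rplp2 is lower without passing the threshold.

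Rpl35a and Rps27 changed by as much as some of the genes that fell but with more spread between libraries. Rps6, Rpl22 and Rps27a changed by less than each gene that fell. Rpl35a, a gene of Diamond-Blackfan anaemia, was 676 and 663 FPKM in CTRL and 487 and 565 in KO (log2 fold change -0.35 ± 0.0857, adjusted p = 0.0621). Rps27 was 1763 and 2009 FPKM in CTRL and 1474 and 1504 in KO (-0.34 ± 0.0850 on the log2 scale, adjusted p = 0.0650). For Rpl35a and Rps27 the KO values were lower than the CTRL values without overlap. Rpl35a shares 31.9% of its stretches with other genes and Rps27 98.4%. Rps6, the target of the S6 kinases whose phosphorylation is read as mTORC1 activity, was 1231 and 1274 FPKM in CTRL and 1031 and 1079.6 in KO (log2 fold change -0.25 ± 0.0627, adjusted p = 0.0666). Rpl22, whose loss in mice arrests αβ T cell development, was 211 and 210.2 FPKM in CTRL and 175 and 191 in KO (log2 fold change -0.21 ± 0.0639, adjusted p = 0.0943). Rps27a, which is made as a fusion with ubiquitin, was 696 and 829 FPKM in CTRL and 674 and 640.2 in KO (adjusted p = 0.203). The wide gap between its CTRL libraries is larger than that between CTRL 1 and either KO library.

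The acidic stalk, which recruits the elongation factors, is built from Rplp0, Rplp1 and Rplp2, and their values differed. Rplp0 was 2105 and 2207 FPKM in CTRL and 2080.1 and 2119.9 in KO (log2 fold change -0.038 ± 0.0663, adjusted p = 0.725). Rplp1 was 2235 and 2480.4 FPKM in CTRL and 2236 and 2279.8 in KO (-0.06 ± 0.0792 on the log2 scale, adjusted p = 0.631). For both the groups overlapped. Rplp2 was 1206 and 1180.4 FPKM in CTRL and 972 and 1027 in KO, without overlap (log2 fold change -0.26 ± 0.0628, adjusted p = 0.0625). The difference between Rplp2 and its partners was not tested.

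Genes linked to red cell disease were spread over the range. Rps19, the gene most often mutated in Diamond-Blackfan anaemia, was 869.8 and 944 FPKM in CTRL and 810.1 and 812 in KO (log2 fold change -0.16 ± 0.0663, adjusted p = 0.163). Rps14, the gene of the 5q- syndrome, was 1751 and 1595 FPKM in CTRL and 1660.0 and 1709 in KO (log2 fold change 0.011 ± 0.0746, adjusted p = 0.928). Both KO values of Rps14 lay between the CTRL values. Rpl38, needed for translation of Hox mRNAs in the embryo, was 728 and 681 FPKM in CTRL and 642 and 653 in KO (log2 fold change -0.12 ± 0.0621, adjusted p = 0.234). The KO libraries of Rps19 and Rpl38 lay below their CTRL libraries, by less than those of Rpl35a.

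In 4 of the 35 tested small subunit genes (11.4%), and in no tested large subunit gene, each KO value was higher than each CTRL value. Over all genes tested this share was 29%. The count over all members was 8 with median-ratio scaling and 9 with quantile normalization, settings for which the share over all genes is not given. The subunits were not compared by a test. None of the 4 passed the threshold (Rps26 and Rpsa passed it in 1 and Rps27l in 3 of the 14 settings with 4 libraries). Rps26, the most abundant member and also a Diamond-Blackfan gene, was 2399 and 2391 FPKM in CTRL and 2738 and 2769.7 in KO. Its log2 fold change was 0.20 ± 0.0642 (adjusted p = 0.0999, and 0.0486 to 0.486 over the other settings with 4 libraries). Rpsa, the laminin receptor precursor, was 1898 and 1968 FPKM in CTRL and 2104 and 2085 in KO (log2 fold change 0.12 ± 0.0639, adjusted p = 0.259). Rps27l was 37.7 and 40.4 FPKM in CTRL and 47.9 and 55.7 in KO (log2 fold change 0.40 ± 0.0904, adjusted p = 0.0558). Rps27l is a known target of p53 and the paralog of Rps27, and none of its stretches is shared with another gene.

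The 5 members with the highest mean FPKM were Rps26, Rplp1, Rps15, Rps23 and Rplp0, and none passed the threshold. Rps15 was 2382 and 2504 FPKM in CTRL and 2044 and 2241 in KO (log2 fold change -0.19 ± 0.0788, adjusted p = 0.161). Rps23, a protein of the decoding centre, was 2096 and 2468 FPKM in CTRL and 2086 and 1992 in KO (log2 fold change -0.16 ± 0.0990, adjusted p = 0.312). CTRL 2 stood above the other libraries for Rps23 by more than the other libraries differed among themselves.

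Of the paralogs compared with the genes they resemble, all had a lower mean FPKM, and Rpl22l1 and Rpl36al were the nearest. Rpl22l1 was 146 and 153 FPKM in CTRL and 134 and 138 in KO (adjusted p = 0.148), below every value of Rpl22. Rpl36al was 225 and 223 FPKM in CTRL and 206 and 220.0 in KO (log2 fold change -0.07 ± 0.0580, adjusted p = 0.425), where Rpl36a fell. Rpl7l1 was 26.2 and 24.2 FPKM in CTRL and 24.96 and 27.4 in KO (adjusted p = 0.677), against 1303 and 1318 in CTRL and 1147 and 1187 in KO for Rpl7 (adjusted p = 0.123). Rps4l, classed as a transcribed pseudogene by GENCODE, was 3.89 and 4.54 FPKM in CTRL and 3.04 and 3.42 in KO (adjusted p = 0.132). Of the 9 paralogs and retrogenes tested, 0 passed the threshold in either direction, at an unadjusted p under 0.05 3 were lower and 1 higher, and the median log2 fold change was -0.17. The partners Rpl3 (1081 and 1102 FPKM in CTRL, 1022 and 1004 in KO, adjusted p = 0.2497) and Rpl10 (1461 and 1471 in CTRL, 1389 and 1354 in KO, adjusted p = 0.310) did not pass it either.

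**Figure D4:**
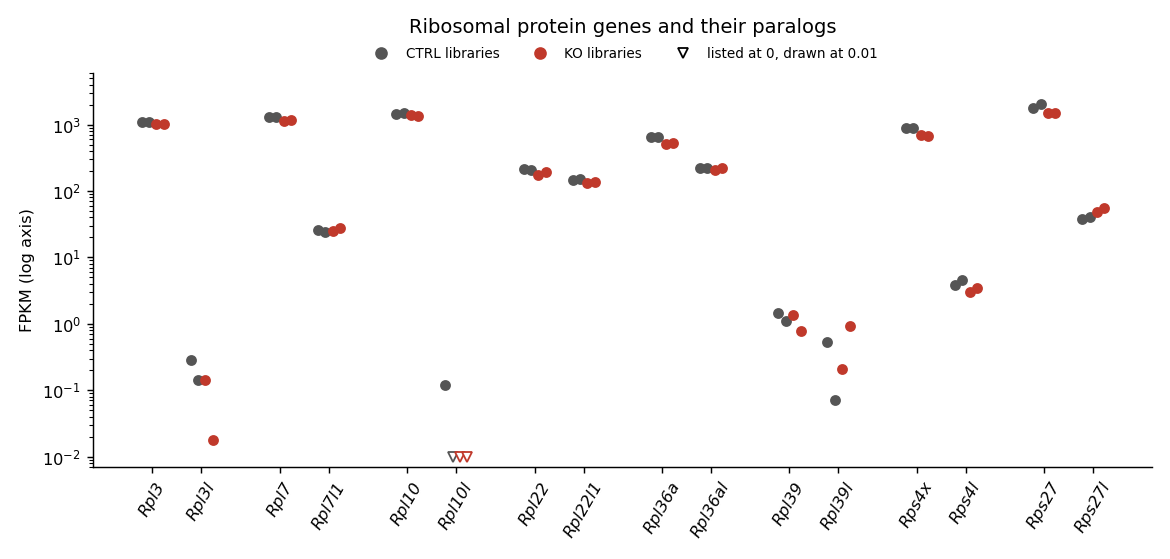
FPKM (log axis) of 8 ribosomal protein genes and their paralogs in the 2 CTRL and 2 KO libraries, with values listed at 0 drawn as open triangles at 0.01. Rpl22l1 and Rpl36al stand nearest to their partners, and Rpl10l is listed at 0 in 3 of the 4 libraries.

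The 4 members below the filter were Rpl3l, Rpl10l, Rpl32l and Rpl39l. Rpl3l, a paralog of heart and skeletal muscle, was 0.287 and 0.145 FPKM in CTRL and 0.142 and 0.0177 in KO, on 15, 8, 8 and 1 recovered reads. Rpl10l, a retrogene of the testis, was 0.119 FPKM in CTRL 1, on 1 read, and listed at 0 in the other libraries. Rpl32l was 0.721 and 0.732 FPKM in CTRL and 0.335 and 0.381 in KO, and Rpl39l 0.530 and 0.0717 in CTRL and 0.211 and 0.911 in KO. These values rest on too few reads for a direction to be given. The core gene Rpl39 was also nearly absent from the values, at 1.47 and 1.10 FPKM in CTRL and 1.37 and 0.787 in KO, on 11 to 19 reads, while every other core gene had at least 2894 reads in each library. Rpl39 encodes a short core protein of the large subunit, 1.75% of its stretches are shared, and its value is given as listed. Rps19bp1, the binding protein, was 15.4 and 13.2 FPKM in CTRL and 14.6 and 12.5 in KO (log2 fold change -0.07 ± 0.110, adjusted p = 0.703).

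The members did not move as a block of equal change. The interquartile range of their fold changes ran from -0.24 to -0.06. The width of this range was 0.180 to 0.218 in the comparisons of each KO library with each CTRL library. The same width was 0.121 between the CTRL libraries and 0.0823 between the KO libraries. The median over members was below 0 in each of the 4 comparisons of a KO with a CTRL library, from -0.12 to -0.19, and 0.02 and 0.05 between libraries of the same genotype. KO 2 was above KO 1 in 68 of the 87 members, so the shift was also uneven between the KO libraries.

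Abundant genes were compared with the members by their values, and the difference between the groups was not tested. Of the genes tested, 130 had a mean FPKM of 500 or more, 69 of them members and 61 other genes. The 69 members had a median log2 fold change of -0.16 and held all 7 of the genes that fell among the 130. The 61 other genes had a median of 0.13, and 8 rose and 0 fell at adjusted p under 0.05. At an unadjusted p under 0.05, 24 were higher and 6 lower. Over all genes tested 5.1% rose and 4.65% fell, and 16.3% were higher and 18.4% lower at that unadjusted p. This level of 500 was chosen after the values had been seen. Within the members, Spearman's rank correlation between fold change and mean FPKM was 0.01 over the 87 genes, which share their libraries and depth.

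**Figure D5:**
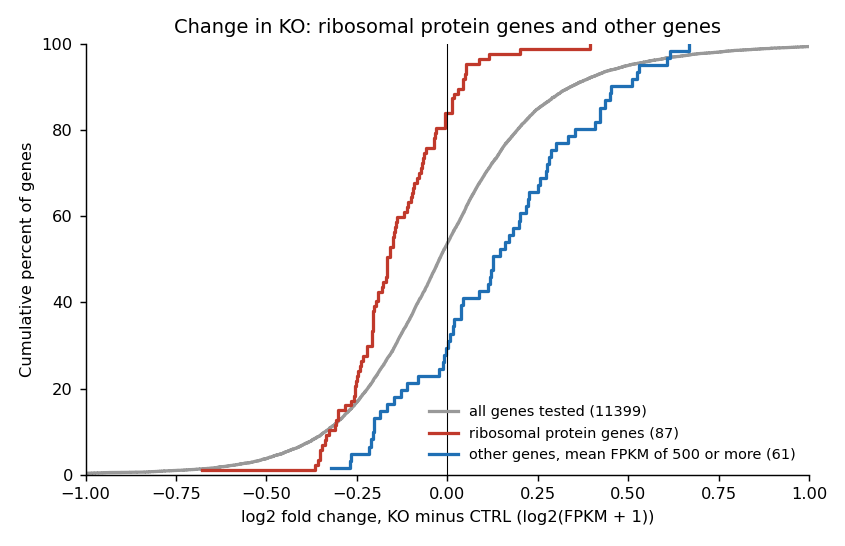
Cumulative percent of genes (y axis) by log2 fold change (x axis, KO minus CTRL) for the 87 ribosomal protein genes, the 61 other genes with a mean FPKM of 500 or more, and all 11399 genes tested. The ribosomal protein genes lie to the left, with a median of -0.17, and the other abundant genes to the right, with a median of 0.13.

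Gene structure was described for all tested members. Their exons span a median of 1739 bases per gene, against 4238 over all genes tested, with GC contents of 51.6% and 50%. Spearman's rank correlation of fold change with exon length was 0.03, with GC content 0.18 and with the share of stretches found in other genes -0.18. For the 18 members with under 10% of stretches shared, 1 fell, 11 had KO values below the CTRL values without overlap, and their median fold change on the log2 scale was -0.16. For the 32 members with 50% or more shared, 5 fell, 24 had KO below CTRL, and the median was -0.20. Over all genes tested 4.65% fell and 35.5% had KO below CTRL. Small nucleolar RNA genes, which guide modification of ribosomal RNA, lie within 30 members. The median was -0.15 in these 30 and -0.17 in the other 57. Of the 4 members on the X chromosome, Rpl36a and Rps4x fell and Rpl10 and Rpl39 did not pass the threshold, where 5.28% of all 360 tested X-linked genes fell. Xist was 29.1 and 37.3 FPKM in CTRL and 23.4 and 23.3 in KO, and the Y-linked Ddx3y was 22.8 and 13.7 in CTRL and 14.9 and 17.1 in KO, so messages of both sex chromosomes' genes were present in every library. Their part in the values of the X-linked members was not tested.

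Fau and Rack1, ribosomal proteins with other names, did not pass the threshold. Fau was 929 and 942 FPKM in CTRL and 912 and 947 in KO (log2 fold change -0.0095 ± 0.0585, adjusted p = 0.924). Rack1 was 450.3 and 434 FPKM in CTRL and 414 and 422 in KO, with both KO libraries below (log2 fold change -0.08 ± 0.0547, adjusted p = 0.338).

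Other genes of the translation machinery were counted from lists for comparison. Of 17 mRNAs of the 5′ TOP class that encode no ribosomal protein, 1 rose, 0 fell, 10 had KO values below the CTRL values without overlap, and the median was -0.09 on the log2 scale. Over all genes tested 5.1% rose, 4.65% fell, 53.8% had a fold change below 0, 35.5% had KO below CTRL and 29% above. The 1 that rose was Pabpc1, the poly(A)-binding protein, at 742 and 762 FPKM in CTRL and 916 and 935 in KO (log2 fold change 0.30 ± 0.0570, adjusted p = 0.0430). Of 65 translation factors tested, 2 rose and 1 fell, with a median of -0.01. Of 77 mitochondrial ribosomal protein genes tested, 6 rose and 1 fell, 33 had KO above CTRL and 18 below, and the median was 0.05. Of 48 ribosome biogenesis genes, 2 rose and 2 fell, 36 had a fold change below 0, 21 had KO below CTRL and 7 above, and the median was -0.09. No difference between these lists and the cytosolic ribosomal protein genes was tested.

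Among 21 regulators of ribosomal protein genes and of TOP mRNA translation, 1 fell and 0 rose. Over all genes tested 4.65% fell and 5.1% rose, so 1 of 21 is near the share over all genes. The regulator that fell was Myc, which drives genes of ribosome production, at 65.4 and 64.9 FPKM in CTRL and 41.3 and 47.6 in KO (log2 fold change -0.54 ± 0.0816, adjusted p = 0.0355). Larp1 was 43.4 and 46.8 FPKM in CTRL and 41.9 and 44.0 in KO (adjusted p = 0.508). Of 14 p53 pathway genes tested, 1 fell, Mdm4, and 0 rose. Cdkn1a was 5.66 and 5.26 FPKM in CTRL and 17.5 and 10.1 in KO (log2 fold change 1.147 ± 0.244, adjusted p = 0.0509). The part of these genes in the values of the ribosomal protein genes was not tested.

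Markers of cell state moved with genotype as well. Of 10 genes of resting T cells 3 fell, with Il7r and Bcl2 among them, and their summed FPKM was 1413 and 1501 in CTRL and 1285 and 1248 in KO. Of 8 genes of activated or effector Treg cells 3 rose (Gzmb, Icos and Cxcr3), with sums of 479 and 426 in CTRL and 677 and 662 in KO. In 7 of the 8 each KO value was higher than each CTRL value, and in 1 each was lower. Of all genes tested 29% and 35.5% were so. Of 6 cycling genes 5 rose, with sums of 94.5 and 70.6 in CTRL and 156 and 154 in KO. Over all genes tested 5.1% rose and 4.65% fell. The part of cell state in the lower ribosomal protein values was not tested. Among 5 Treg markers and 3 T cell markers measured 0 passed the threshold, and Foxp3 was present in all libraries at 112 to 139.8 FPKM. The 5 B cell markers summed to 25.8 and 21.5 FPKM in CTRL and 39.9 and 24.1 in KO. Cd8a was at or under 0.326 FPKM. With Cd8b1 the 2 CD8 markers summed to 8.49 and 11.4 FPKM in CTRL and 10.6 and 11.3 in KO. The 5 myeloid markers summed to 198 and 126 in CTRL and 235 and 100.4 in KO. In the myeloid sums replicate 1 was the higher library of each genotype, so they did not separate the groups, and their part was not tested. The 5 erythroid genes listed summed to 22.7 and 4.16 FPKM in CTRL and 38.5 and 11.4 in KO, with the same order of replicates.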

How the data were processed

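Libraries of oligo(dT)-selected RNA were read as 150 bp pairs. The authors mapped reads to mm10 with HISAT2 2.2.1, counted them with featureCounts 2.0.1 and deposited FPKM for 24087 genes in 4 libraries. The gene length, annotation version, strand setting and handling of multiply mapped reads were not given in the sources used here. Columns named WT were read as CTRL. FPKM are not counts, so edgeR (3.34.0), which the authors used, was replaced by limma 3.58.1 (R 4.3.3, lmFit and eBayes with an intensity trend, two-sided) on log2(FPKM + 1), which understates changes of low values. Genes that reached 1 FPKM in 2 or more libraries were tested, and p was adjusted by Benjamini-Hochberg with a threshold of 0.05. The test was checked on simulated data. Low FPKM values stood in whole-number ratios, which gave whole reads for 19887 of 19888 genes (99.995%, tolerance 0.002 reads). These are lower bounds of the counts, and limma-voom on them called 1893 genes, against 1111 in the test used. Positions, exon lengths, GC content and shared 100-base stretches came from GENCODE vM21 on GRCm38, start windows (the first listed per gene) from RefSeq. Shared stretches were those of a gene's principal transcript that occur exactly in another annotated transcript.

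The members and all lists were chosen with earlier results of these data known. Members given with their value in every library were those past the threshold, the 5 with the highest mean FPKM, a set fixed by role, paralog pairs and those below the filter. Some genes that these rules name are not reported here. No column of another sample was found. The alternatives were another pseudocount, other filters, scalings and variance models, the replicate number as a block, each library left out, removal of the exon length or GC trend, recovered reads, and members without shared sequence. Replicate numbers were taken from the labels, and nothing ties equal numbers to a shared litter or day.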

Additional observations from a re-analysis of the deposited data

How the results depend on the processing

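The number of members that fell (7) depended on the settings: 0 without the filter, 18 with a mean FPKM above 5, 20 with equal sums of the other genes, 15 with quantile normalization, 1 with no variance trend, 17 with a robust variance, 4 with the exon length trend removed and 21 with limma-voom. With the replicate number as a block it was 12 (1 higher). The libraries share only a number, so this is no pairing by design, and deviations of equal numbers correlated at 0.342 (Pearson) and 0.0553 (Spearman) over all genes tested. The number that rose (0) was 1 with a mean FPKM above 5, 2 with quantile normalization and 1 with a robust variance. Without CTRL 1, CTRL 2, KO 1 or KO 2 in turn it was 0 to 0 higher and 0 to 0 lower, where at most 1 of all genes was called, so this says nothing of stability. Over all genes 581 rose and 530 fell, and 553 rose and 1002 fell with equal sums of the other genes. The number of all genes that fell also moved with the other settings. It was 622 with a mean FPKM above 5, 479 with quantile normalization, 753 with a robust variance and 805 with the block. With no variance trend it was 364, with the exon length trend removed 291 and with limma-voom 1002. Without the filter it is not given, so the 0 members that fell in that setting are not read as a result about the members. The median of -0.17 was -0.14 with median-ratio scaling, -0.22 with equal sums of the other genes and -0.22 with the exon length trend removed. For large subunit genes (-0.15) these were -0.12, -0.19 and -0.20, and for small subunit genes (-0.20) -0.18, -0.25 and -0.26, with -0.19 under quantile normalization. Without 1 library the median was -0.17 to -0.15 over members, -0.16 to -0.13 for the large subunit and -0.21 to -0.15 for the small. The count with KO above CTRL (4) was 8 with median-ratio scaling and 9 with quantile normalization. Without 1 library it was 5 to 12, and that with KO below (58) was 63 to 68. With 1 library left in a group the values lie apart more easily, so these counts are not comparable with 4 and 58. The shares over all genes are not given for these settings. The 15 tested members with under 10% shared stretches and no overlapping exon gave 0 that fell, 8 below (53.3%) and 2 above (13.3%). Their median was -0.17. Over all genes tested 4.65% fell, 35.5% had KO below CTRL and 29% above. Without the condition on overlap, chosen after seeing the data, the counts were 1, 11 and 2 of 18 members. The difference in share was -2.02 percentage points of summed FPKM and -0.659 of recovered reads.

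Directions reversed for 8 of the members named, none past the threshold, of which Rps23 (-0.16) and Rpl39 (-0.15) were the farthest from 0. Under quantile normalization Rplp1 was 0.029, Rps23 0.0066 and Rplp0 0.11. With equal sums of the other genes Rpl11 was -0.031 and Rps14 -0.038, with equal sums Rps14 was -0.0028, with the exon length trend removed Rpl11 was -0.017 and Rps14 -0.034, and with the GC trend removed -0.0025 and -0.042. Without 1 library at a time, Rplp1 ranged from -0.14 to 0.015 (highest without CTRL 2), Rpl11 from -0.030 (without KO 2) to 0.067, Rps14 from -0.056 (without CTRL 2, and -0.0094 without KO 2) to 0.079, Rps19bp1 from -0.17 to 0.037 (without KO 2, and 0.033 without CTRL 1), Rpl7l1 from -0.013 (without KO 2, and -0.0028 without CTRL 2) to 0.11 and Rpl39 from -0.35 to 0.055 (without KO 2). The median of the ribosomal proteins with other names ranged from -0.058 to 0.0094 (without KO 1, and 0.00015 without CTRL 2). That of translation factors was 0.0079 with median-ratio scaling and that of p53 genes -0.011 with a mean FPKM above 5. Rpl29 passed the threshold in 13 of 14 settings with 4 libraries and Rpl36a, Rpl5 and Rps4x in 12. The cause of these changes was not tested. With 2 libraries per group, the spread between pools limits the precision.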
